A study of Caenorhabditis elegans with 2 samples.

Results

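The genes described here are 10 protein-coding genes of Caenorhabditis elegans: 9 chaperone genes and hsf-1, the gene of heat shock factor. They are 10 of the 19985 protein-coding genes annotated on the assembly. The genes were chosen by name, after the promoters in the IDR-thresholded list of peaks had been read, so counts on that list describe the choice and support nothing. The same holds for the signal and the replicate overlap of those peaks in the other lists, which are not independent of the choice. For each gene, every peak was taken whose summit lay inside the gene or within 1 kb upstream of any of its annotated transcript starts. Chromatin immunoprecipitation with sequencing had been done on AKIR-1, the worm akirin, a conserved nuclear protein that takes part in transcriptional regulation. The worms were of strain IG1654 and carried the transgene frSi12 [pNP157 (akir-1p::AKIR-1::GFP)] on chromosome II, in which the akir-1 promoter drives AKIR-1 with a C-terminal GFP-FLAG tag, per the strain's label. The labels also name a CRISPR insertion targeting akir-1, and how that relates to the transgene is not settled by them. Whole young adults of mixed sex, 70 hours old and synchronised as starved L1 larvae after bleaching, were precipitated with an antibody against GFP. The labels name no heat or other stress treatment. There was 1 group of 2 biological replicates, numbered 3 and 4, so no condition can be compared. Whole animals were used, so the tissue in which a peak arose is unknown, and peaks give no expression level against which markers could be checked.

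Chaperones help other proteins to fold and keep them from clumping. HSP70 proteins bind exposed stretches of unfolded chains in a cycle driven by ATP, J-domain proteins bring them their clients and start that cycle, and nucleotide exchange factors reset it. HSP90 proteins act later, on clients that are nearly folded, and chaperonins enclose a chain in a chamber. HSF-1 drives the cytosolic set by binding heat shock elements, which are alternating GAA and TTC units. In worms the endoplasmic reticulum set answers to the unfolded protein response through XBP-1, and the mitochondrial set answers to a response of its own through ATFS-1.

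AKIR-1 peaks were found at 8 of the 10 genes in the pooled list, where 62.1% of all protein-coding genes had one. The count was also 8 in the replicate 3 list, against 63.1%, and in the replicate 4 list, against 62.9%, so having a peak in these long lists was common everywhere. Many calls in them are weak. In the pooled list the deposited q-value of the strongest peak was 0.616 at hsp-4, 0.298 at hsp-110 and 0.0947 at hsp-6. The value was 0.0516 at hsp-1, 0.0290 at enpl-1 and 0.0264 at dnj-13, hsp-90 and hsp-3. The peaks of these 5 genes are also IDR-thresholded, and the weakest peak of that list had 0.0513. In replicate 3 the peaks of dnj-13, hsp-90 and hsp-3 had 0.0867 each, as did an exon peak of hsp-6. A call in the long lists is thus not by itself a well supported peak. In the IDR-thresholded list, which the choice used, 5 of the 10 had one, against 1.87%. These 5 were dnj-13, hsp-90, hsp-3, enpl-1 and hsp-1, which stand for the cytosol and the endoplasmic reticulum. The gene of the mitochondrial HSP70, hsp-6, had a peak upstream that both replicates held within 3 bp but that fell short of the IDR-thresholded list. Neither hsp-60 nor hsf-1 itself had a summit in any of the 4 lists. Signal values are the authors' own. Their scale is unstated and is not the same from list to list, so a value is read here against its rank in the same list, where rank 1 is the strongest of 30000 peaks. In the pooled list the signal had a median of 44.5 over all peaks and ran from 33.6 to 6567.

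The sequences under the 6 strongest promoter summits are shown because they carry the best placed AKIR-1 signal of these genes. Each is 151 bases long, centred on the pooled summit and written 5′ to 3′ on the strand of its gene, from the RefSeq assembly WBcel235, which is ce11. Capitals mark the CCAAT box, or its reverse complement ATTGG, and in hsp-6 a heat shock element of 3 units. The windows lie at chrII:11545401-11545551 (plus strand) for dnj-13, chrV:14685723-14685873 (plus) for hsp-90, chrX:6092095-6092245 (minus) for hsp-3, chrIV:11119149-11119299 (plus) for enpl-1, chrIV:17278458-17278608 (plus) for hsp-1 and chrV:4827033-4827183 (minus) for hsp-6.
dnj-13: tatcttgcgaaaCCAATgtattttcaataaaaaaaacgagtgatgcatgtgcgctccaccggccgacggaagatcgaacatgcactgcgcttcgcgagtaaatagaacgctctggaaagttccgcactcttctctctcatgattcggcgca
hsp-90: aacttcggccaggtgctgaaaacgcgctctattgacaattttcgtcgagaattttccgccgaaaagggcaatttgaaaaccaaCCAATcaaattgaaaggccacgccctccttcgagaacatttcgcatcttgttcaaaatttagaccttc
hsp-3: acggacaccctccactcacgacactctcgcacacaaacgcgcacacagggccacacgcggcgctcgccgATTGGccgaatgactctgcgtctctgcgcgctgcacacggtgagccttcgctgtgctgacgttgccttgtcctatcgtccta
enpl-1: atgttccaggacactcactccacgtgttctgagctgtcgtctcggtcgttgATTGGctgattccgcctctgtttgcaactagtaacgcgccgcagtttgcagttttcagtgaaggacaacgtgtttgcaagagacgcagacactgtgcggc
hsp-1: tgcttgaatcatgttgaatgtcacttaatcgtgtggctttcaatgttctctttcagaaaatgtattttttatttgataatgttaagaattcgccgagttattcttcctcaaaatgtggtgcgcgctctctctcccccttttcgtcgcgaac
hsp-6: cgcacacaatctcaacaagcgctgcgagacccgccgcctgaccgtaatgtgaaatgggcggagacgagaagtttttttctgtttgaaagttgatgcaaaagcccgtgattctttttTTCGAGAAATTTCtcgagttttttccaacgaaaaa

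A CCAAT box was present in the windows of 4 of the 5 IDR-thresholded members, dnj-13, hsp-90, hsp-3 and enpl-1. This word was looked at after the sequences had been seen. Over all nuclear IDR-thresholded peaks 24.2% held it. Over the members' 24 pooled peaks 9 held it (37.5%), against 29.5% of all nuclear pooled peaks. GC content was 62.9% in the hsp-3 window, 53.0% in that of enpl-1, 47.7% in that of dnj-13, 44.4% in that of hsp-6, 43.7% in that of hsp-90 and 39.1% in that of hsp-1. The median of the 5 IDR-thresholded members was 47.7%, against 48.3% over all nuclear IDR-thresholded peaks and 37.1% over all nuclear pooled peaks.

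Among the cytosolic genes, dnj-13 had the strongest peak. It encodes a J-domain co-chaperone of HSP70 and lies at chrII:11545701-11547360 on the plus strand. Its peak, at chrII:11545286-11545665, had a signal of 216 in the pooled list, rank 44, with its summit at 11545476, 225 bp upstream of the only annotated start. In replicate 3 the peak had a signal of 118 (rank 37) and in replicate 4 of 97.3 (rank 54), and their summits were 30 bp apart. Both replicates thus placed it among their strongest peaks. The region is shared: the summit lies inside dhgd-1 on the opposite strand. Starts of separate non-coding RNA entries, both named F54D5.22, lie 12 bp (plus strand) and 137 bp (minus strand) away. A second pooled peak, in a coding exon 604 bp after the start, had a signal of 84.7 (rank 1070).

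The replicate summits lay closest together at hsp-90. The gene encodes the cytosolic HSP90, which holds kinases, receptors and other clients in a form ready for activation, and lies at chrV:14684918-14688545 on the plus strand. Its peak at chrV:14685608-14685987 had a pooled signal of 189 (rank 64). Replicate 3 gave 93.9 (rank 80) and replicate 4 gave 95.9 (rank 57), with summits 1 bp apart. The summit lies in an intron, 880 bp after the first annotated start and 362 bp upstream of the second, so it counts as a promoter peak through the second start. The start of C47E8.4, on the opposite strand, lies 313 bp away. The other pooled peak of hsp-90, in a coding exon, had a signal of 72.1 (rank 2221).

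At hsp-1 the replicates differed most in rank among the IDR-thresholded members. The gene encodes the constitutive cytosolic HSP70 and lies at chrIV:17278959-17281330 on the plus strand. Its upstream peak, at chrIV:17278343-17278722 with the summit 426 bp before the start, had a pooled signal of 108 (rank 398). Replicate 3 gave 68.7 (rank 256) and replicate 4 gave 42.4 (rank 1739), with summits 39 bp apart. The start of the non-coding RNA F26D10.23 lies 120 bp from the summit. Only 2 peaks of the IDR-thresholded list ranked lower than this one. The gene held 5 pooled peaks, more than any other member. A peak in a coding exon, 917 bp after the start, had a pooled signal of 106 (rank 426). The strongest replicate 3 call over it ranked 162, against 5054 in replicate 4, with summits 169 bp apart. A second replicate 3 call over it, at rank 389, had its summit 54 bp from that of replicate 4. The start of the snoRNA F26D10.24 lies 170 bp from the pooled summit. A further peak in the 3' UTR had a signal of 80.4 (rank 1373).

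The cytosolic gene with the weakest signal was hsp-110, which encodes a relative of HSP70 that acts as its nucleotide exchange factor. It lies at chrIII:8443910-8446909 on the minus strand and had 4 pooled peaks, none of them in the IDR-thresholded list. The strongest, in a coding exon 258 bp after the start, had a pooled signal of 75.7 (rank 1769) and a replicate 3 signal of 58.4 (rank 455), and no replicate 4 peak overlapped it. The next, also in a coding exon, had 67.2 (rank 3057) and was called in both replicates with summits 104 bp apart.

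**Figure D1:**
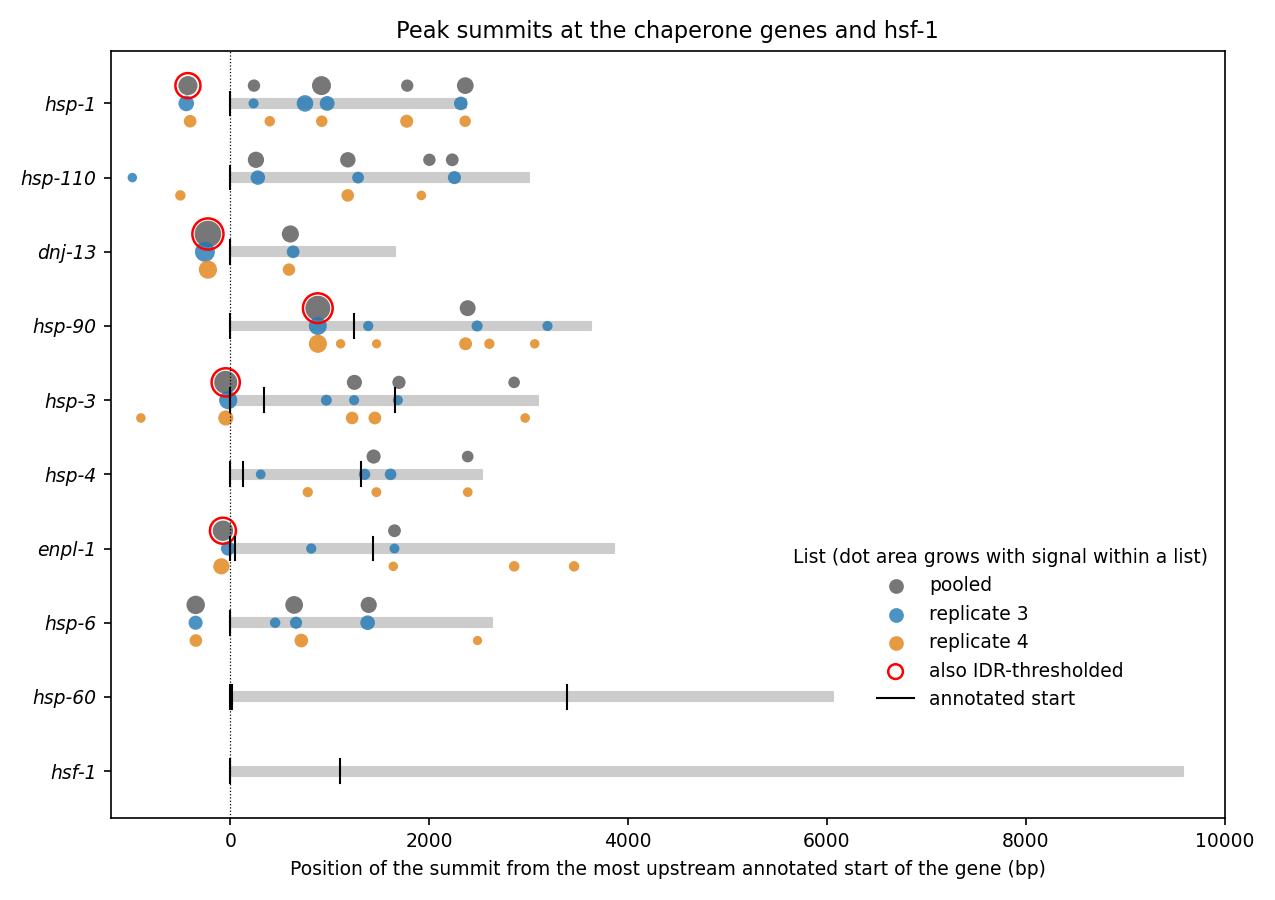
Peak summits at the 10 genes by position from the most upstream annotated start (bp), with the gene as a grey bar and annotated starts as black ticks; dots are summits of the pooled, replicate 3 and replicate 4 lists, dot area grows with signal, and red rings mark IDR-thresholded peaks. The ringed summits of dnj-13, hsp-3, enpl-1 and hsp-1 lie before the first start, that of hsp-90 lies 880 bp after it, and hsp-60 and hsf-1 have no summit.

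In the endoplasmic reticulum set, hsp-3 and enpl-1 had peaks just upstream of their first starts and hsp-4 had none upstream. The gene hsp-3 encodes one of the worm's pair of HSP70 proteins of the endoplasmic reticulum, known in mammals as BiP, and lies at chrX:6089028-6092124 on the minus strand. Its peak at chrX:6091980-6092359 had a pooled signal of 161 (rank 113), with the summit 46 bp upstream of the start. Replicate 3 gave 96.5 (rank 69) and replicate 4 gave 64.6 (rank 275), with summits 24 bp apart. It was the summit closest to a start among the 5 IDR-thresholded members.

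The other gene of the pair, hsp-4, is the one best known as a reporter of endoplasmic reticulum stress in worms, and lies at chrII:7350112-7352645 on the minus strand. Its strongest pooled peak had a signal of 55.3 (rank 6993) and lay in a coding exon, 1441 bp from the first start and 125 bp after a later one. Replicate 3 gave 34.4 (rank 5479) and replicate 4 gave 23 (rank 18637), with summits 143 bp apart. A 3' UTR peak of 35.2 ranked 27217, near the end of the pooled list. The rank of hsp-4 among 19985 protein-coding genes by strongest pooled signal was 4661, against 110 for hsp-3.

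The gene enpl-1 encodes the HSP90 of the endoplasmic reticulum, known in mammals as GRP94, and lies at chrIV:11119298-11123155 on the plus strand. Its peak at chrIV:11119034-11119413 had a pooled signal of 124 (rank 259), with the summit 74 bp upstream of the first start. Here replicate 4 ranked the peak higher, with 75 (rank 153), and replicate 3 gave 54.9 (rank 601). The summits were 67 bp apart, the widest gap among the 5 IDR-thresholded members. The start of imp-2 lies 337 bp from the pooled summit. The second pooled peak of enpl-1 was weak, at 43.8 (rank 15739).

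The mitochondrial pair differed in having any peak. The gene hsp-6 encodes the mitochondrial HSP70, which pulls proteins into the matrix and folds them, and lies at chrV:4824124-4826760 on the minus strand. Its strongest pooled peak, at chrV:4826918-4827297, had a signal of 99.4 (rank 523), with the summit 348 bp upstream of the start. Replicate 3 gave 54.7 (rank 606) and replicate 4 gave 42.7 (rank 1670), with summits 3 bp apart. Starts of the non-coding RNAs C37H5.15 and C37H5.16 lie 30 and 156 bp away, and that of C37H5.5 lies 252 bp away. In coding exons, 2 further pooled peaks of hsp-6 had signals of 91.4 (rank 739) and 74.9 (rank 1848), and no replicate 4 peak overlapped the second.

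The gene hsp-60, which encodes the mitochondrial chaperonin, lies at chrIII:1619742-1625803 on the plus strand and had no summit in any list within its window of 7.06 kb. The nearest pooled summit lay 17901 bp outside that window, with a signal of 54.4 (rank 7472). The window of hsf-1 was longer, at 10.6 kb, at chrI:11953507-11963085 (minus strand), and was also empty in all 4 lists. Its nearest pooled summit lay 3840 bp away with a signal of 45.3 (rank 14197). An empty window is common: 2 of the 10 genes (20%) had one in all lists, against 4370 of 19985 protein-coding genes (21.9%). Among the 2349 protein-coding genes with windows of 7.06 kb or more, 369 (15.7%) were empty in all lists. A window with no summit says that no peak reached the lists there, not that AKIR-1 was absent, since the depth behind the lists is unknown.

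**Figure D2:**
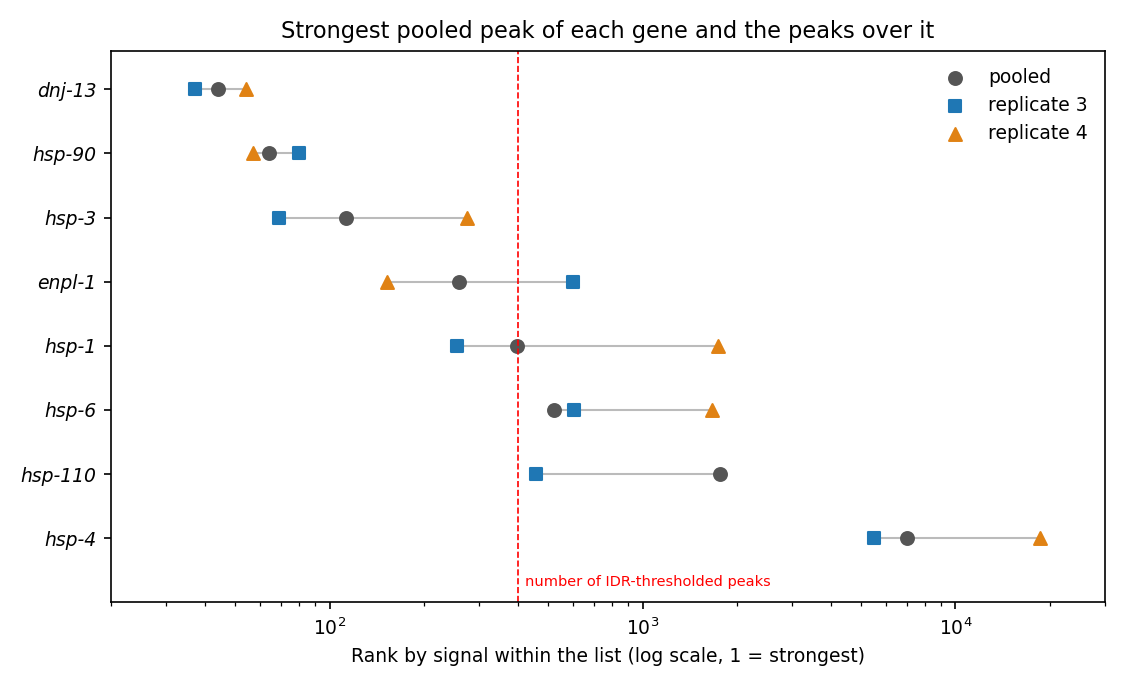
Rank by signal within its list (log axis, 1 is the strongest) of the strongest pooled peak of each of the 8 genes with a peak, and of the replicate 3 and replicate 4 peaks that overlap it; the dashed line marks 400 peaks. The peaks of dnj-13 (rank 44) and hsp-90 (rank 64) lead, hsp-110 has no overlapping replicate 4 peak, and hsp-1 (rank 398) and hsp-6 (rank 523) lie on either side of the limit of 400 peaks.

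The remaining pooled peaks of these genes lay inside the genes. In hsp-90, the exon peak ranked 8288 in replicate 3 (signal 31.0) and 1280 in replicate 4 (45.1), with summits 116 bp apart. The second peak of dnj-13 was closer, with 43.3 (rank 1898) in replicate 3, 40.9 (rank 2076) in replicate 4 and 42 bp between them. At hsp-1 the 3' UTR peak had 50.9 (rank 843) in replicate 3 and 33.6 (rank 5030) in replicate 4. Another hsp-1 peak, of pooled signal 39.9 (rank 20336), ranked 1163 in replicate 4 and had no overlapping call in replicate 3. In hsp-6 the exon peak of pooled signal 91.4 had 38.8 (rank 3250) in replicate 3 and 51.0 (rank 708) in replicate 4, with summits 53 bp apart. The hsp-3 gene held 3 more pooled peaks, of 64.2 (rank 3726) in an intron, 47.3 (rank 12398) in a coding exon and 34.5 (rank 28372) in the 3' UTR.

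The order of the 8 genes by strongest pooled signal was dnj-13 (216), hsp-90 (189), hsp-3 (161), enpl-1 (124), hsp-1 (108), hsp-6 (99.4), hsp-110 (75.7) and hsp-4 (55.3). The order is not fixed between neighbours: enpl-1 ranked above hsp-1 in replicate 4, at 153 against 1739, and below it in replicate 3, at 601 against 256. The limit of the IDR-thresholded list runs between close values. Its weakest peak had a signal of 108, and the strongest pooled peak outside it had 108 as well, at rank 401. The list thus holds the 400 strongest pooled peaks, and being in it is not evidence separate from pooled signal. The hsp-1 peak at rank 398 is just inside, and the hsp-1 exon peak at rank 426 is just outside. The hsp-6 upstream peak, at rank 523 with a signal of 99.4, is further outside.

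Set against the background of all protein-coding genes, the member counts depended on the list. In the IDR-thresholded list, which chose the members, 5 of 10 genes had a summit, and 1.87% of protein-coding genes did; within promoters, from 500 bp before to 100 bp after a start, 5 of 10 did, and 0.951% of protein-coding genes. The pooled list held a summit for 8 of 10 members against 62.1% of protein-coding genes, the replicate 3 list for 8 against 63.1%, and the replicate 4 list for 8 against 62.9%. Overlapping peaks of both replicates were present at 8 members against 36.9% of protein-coding genes. As 5 of these 8 carry the IDR-thresholded peaks known when the genes were chosen, and 381 of 384 nuclear IDR-thresholded peaks overlap calls of both replicates, nothing is read from that count. The windows of the members were longer, with a median of 4.05 kb against 3.03 kb over all protein-coding genes, and held 0.496 pooled summits per kb against 0.312. That density counts 24 summits, among them the 5 IDR-thresholded ones known at the choice, so nothing is read from it either.

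**Figure D3:**
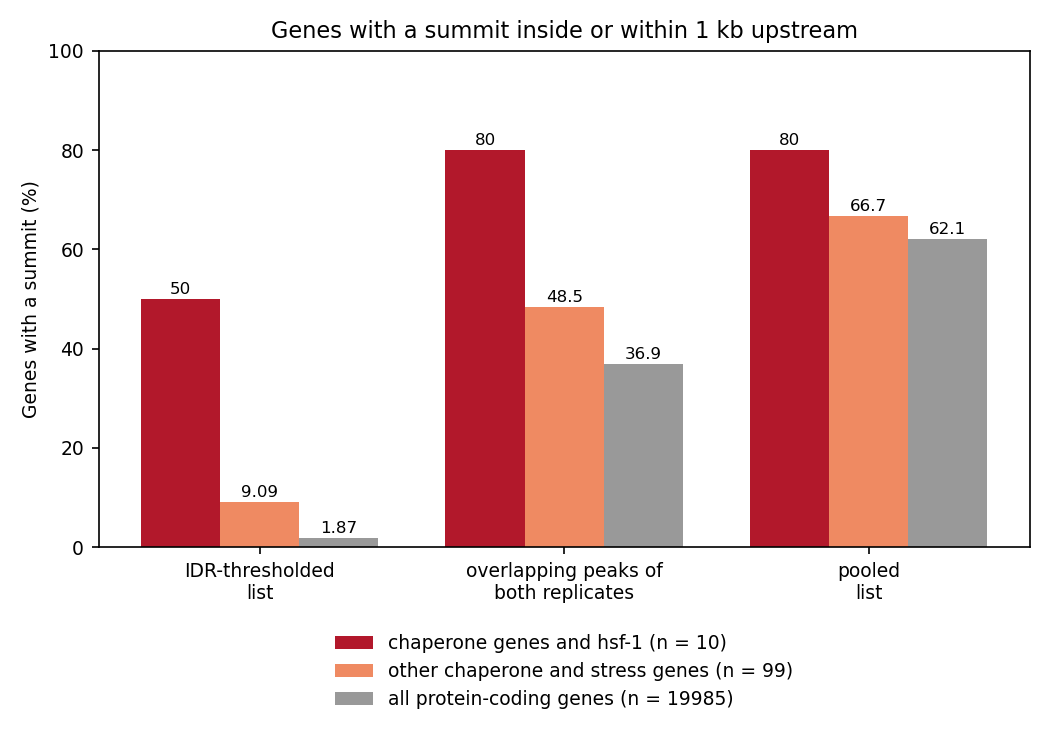
Percent of genes with a summit inside or within 1 kb upstream, for the 10 members, 99 other chaperone and stress genes and all 19985 protein-coding genes, in the IDR-thresholded list, in overlapping peaks of both replicates and in the pooled list. The members stand at 50%, 80% and 80%, the other chaperone and stress genes at 9.09%, 48.5% and 66.7%, and all protein-coding genes at 1.87%, 36.9% and 62.1%. Both the members and the other chaperone and stress genes were chosen with earlier results of these data known.

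The replicates overlapped at most of the members' peaks. Of their 24 pooled peaks, 21 had an overlapping call in replicate 3 and 22 in replicate 4. Calls of both replicates overlapped 19 (79.2%), against 13765 of 29983 nuclear pooled peaks (45.9%). That count includes the 5 IDR-thresholded peaks, which overlapped both in 5 of 5 cases with a median of 30 bp between replicate summits. Without them 14 of 19 (73.7%) overlapped both, and the median distance was 129.5 bp, against 92.0 bp over all nuclear pooled peaks. Distances run between the strongest overlapping calls, which need not be the nearest. The hsp-3 intron peak was given 488 bp, though replicate summits lay at 6090879 and 6090899. The hsp-110 peaks at ranks 16031 and 19648 count the same pair of calls. The larger median thus shows no poorer agreement at the members. The median pooled signal of the 24 peaks was 73.5, against 44.5 in the whole list, and the 5 IDR-thresholded peaks among them had 108 to 216. The pooled list was made from both replicates, so these overlaps are not independent of it. By position, all 8 pooled summits in the members' promoters were called in both replicates, with a median of 34.5 bp between replicate summits and a median signal of 116. Elsewhere in the genes 11 of 16 (68.8%) were called in both, with 116.0 bp between summits and a median signal of 61.3. Of the 8 promoter summits 5 are the IDR-thresholded ones, so these values describe the choice and show no difference by position. Over all nuclear pooled peaks the corresponding shares were 50.9% in promoters of protein-coding genes, with a median of 83.0 bp between replicate summits, and 44.9% elsewhere, with 94.0 bp. Of the 24 pooled summits, 13 lay in coding exons, 5 upstream, 3 in introns and 3 in 3' UTRs.

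Heat shock elements of 3 units, counted as alternating GAA and TTC units with 2 unspecified bases between neighbours and read on both strands, were present within 1 kb upstream of a start in 7 of the 10 genes. These were hsp-1, hsp-110, dnj-13, hsp-90, hsp-6, hsp-60 and hsf-1, against 7.91% of 19865 nuclear protein-coding genes. The members had more annotated starts, with a median of 2 against 1, so more sequence was searched per gene. Counted per 1 kb window upstream of a start, 9 of 21 (42.9%) held the element, against 6.51% of 29784. Windows of close starts overlap. The core of the unfolded protein response element, TGACGTG or its reverse complement CACGTCA, was present upstream of the 2 HSP70 genes of the endoplasmic reticulum, hsp-3 and hsp-4, against 9.35% of genes. The gene enpl-1 had neither. Both empty windows, those of hsp-60 and hsf-1, thus held a heat shock element and no AKIR-1 summit. The element of hsf-1 lies 497 bp before its second start and 604 bp after its first. A match is a run of letters and not a measured site.

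Of the 10 matched words 9 are printed, on the gene strand, and that of hsf-1 is left out. They are shown for how they sit against the summits; all bases of a match are in capitals.
hsp-1, chrIV:17278056-17278068: GAATCTTCGAGAA
hsp-1, chrIV:17278815-17278827: GAATTTTCTAGAA
hsp-110, chrIII:8447012-8447024: GAAATTTCTAGAA
hsp-110, chrIII:8447134-8447146: TTCTCGAATATTC
dnj-13, chrII:11545292-11545304: TTCCAGAATATTC
hsp-90, chrV:14684833-14684845: TTCTCGAATGTTC
hsp-90, chrV:14684903-14684915: TTCTCGAAAGTTC
hsp-6, chrV:4827055-4827067: TTCGAGAAATTTC
hsp-60, chrIII:1619045-1619057: GAAGCTTCGAGAA
In dnj-13 the element lies 403 bp before the start, inside the called peak but 178 bp from its summit. In hsp-6 the element lies 47 bp from the summit, the closest of the upstream elements. In hsp-1 the elements lie 897 and 138 bp before the start, and the nearer one lies 288 bp from the strongest summit. In hsp-90 the elements lie 79 and 9 bp before the first start, while the summit lies 959 and 889 bp from them. The elements of hsp-110 lie 109 and 231 bp before the start, and 367 and 489 bp from its strongest summit, which is inside the gene. The element of hsp-60 lies 691 bp before a start, with no summit near it. In hsp-3 the unfolded protein response core at chrX:6092250-6092256 lies 83 bp from the summit and inside the peak, whereas that of hsp-4 at chrII:7352722-7352728 lies 1521 bp from the strongest summit.

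Few summits had the element directly under them, among the members and among all nuclear peaks. Within 75 bp on either side, 0 of the 5 IDR-thresholded member peaks held a heat shock element of 3 units, against 7 of 384 nuclear IDR-thresholded peaks (1.82%). With 5 peaks and so low a share, a count of 0 shows no lack of the element. Of the 24 pooled member peaks 2 did (8.33%), the upstream peak of hsp-6 and a coding exon peak of hsp-3, against 208 of 29983 (0.694%). The unfolded protein response core lay under 0 of the 24, against 1.47% of nuclear pooled peaks. With so low a share, this count of 0 shows no lack of the core either. The core of hsp-3 lies just beyond the limit of 75 bp, at 83 bp from the summit.

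**Figure D4:**
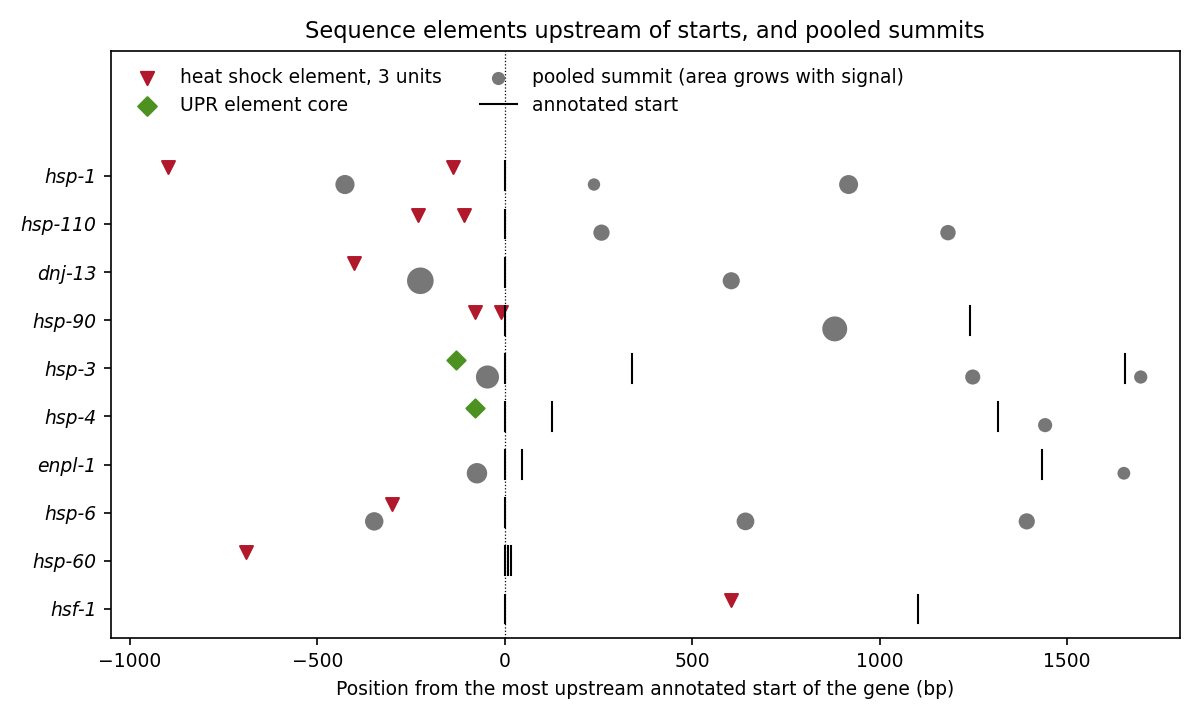
Positions of heat shock elements of 3 units (triangles), unfolded protein response cores (diamonds) and pooled summits (grey dots, area grows with signal) from the most upstream annotated start (bp); black ticks are annotated starts. The element of hsp-6 lies 47 bp from its summit, and those of hsp-90 lie 959 and 889 bp from its summit.

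Other chaperone and stress genes were read from 8 further lists, of which 99 of 103 genes matched the annotation. An IDR-thresholded summit was present at 9 of the 99 (9.09%) and a pooled summit at 66 (66.7%), against 1.87% and 62.1% of all protein-coding genes. These lists, too, were chosen with earlier results of these data known, so the shares are a description and support nothing. Among the 9 genes, F44E5.4 and F44E5.5 share 1 summit. In the endoplasmic reticulum list of 11 genes, 2 had an IDR-thresholded summit and 11 a pooled one. They were xbp-1, the transcription factor of the unfolded protein response, with a pooled signal of 163 (rank 109) and a summit 61 bp upstream, and pdi-6, a protein disulfide isomerase, with 121 (rank 281) and a summit 23 bp upstream. Among co-chaperones of HSP90 and HSP70, 2 of 11 had one, bag-1 with 172 (rank 89), a nucleotide exchange factor of HSP70, and ahsa-1 with 121 (rank 278), an activator of the HSP90 ATPase. In the J-domain list, 2 of 28 had one. They were dnj-28 at rank 325, with a summit 113 bp upstream, and dnj-20 at rank 377. The dnj-20 summit lies inside the gene, 2027 bp after the nearest start, and so not in a promoter. In the dnj-28 peak 30.4% of the 36-base words occur elsewhere in the genome. Of the 14 subunits of the cytosolic chaperonin TRiC and of prefoldin, which hands it clients, 1 had one, cct-7 at rank 154. Some of these summits are shared with starts of other genes within 500 bp. Such starts are those of C01G10.7 at ahsa-1, supr-1 at dnj-28, and T10B5.4 and the non-coding RNA T10B5.13 at cct-7.

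The heat-inducible HSP70 genes F44E5.4 and F44E5.5 shared 1 IDR-thresholded summit of 159.7 (rank 116), and 20.9% of the 36-base words in that peak occur elsewhere in the genome. No IDR-thresholded summit was present at the 12 small heat shock protein genes, the 9 mitochondrial folding genes or the 7 regulators and relatives of HSF-1. Pooled summits were present at 7, 5 and 4 of these, close to the 62.1% of all protein-coding genes. Of the 14 small heat shock protein genes listed, hsp-16.11 and hsp-16.49 did not match the annotation. Repeated words were counted only in called peaks, so whether reads could be placed in windows without a summit is unknown. The strongest in the HSF-1 list were pqm-1 (82.1) and skn-1 (81.8), both transcription factors, and the strongest small heat shock protein gene was sip-1 (78.2). A start of the non-coding RNA F43D9.8 lies within 500 bp of the sip-1 summit. The 5 IDR-thresholded peaks of the members held no 36-base word that occurs elsewhere, and of their 24 pooled peaks only 1, in hsp-1, did (11.9% of its words).

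Which of the 5 promoter peaks is ascribed to a chaperone depends on the rule for starts. Where a peak is given only to the nearest annotated start of any gene, 2 members remain, hsp-3 and enpl-1, since starts of other genes lie nearer to the summits at dnj-13, hsp-1 and hsp-90. When only 250 bp before and after each start are kept, 3 remain, dnj-13, hsp-3 and enpl-1. Among the 400 strongest peaks of replicate 4 alone the hsp-1 peak is missing, and among those of replicate 3 alone the enpl-1 peak is missing; 4 members are left in each.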

How the data were processed

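Peaks of AKIR-1::GFP were deposited as 4 lists on ce11: replicate 3, replicate 4 and pooled lists of 30000 peaks each, and an IDR-thresholded list of 400 made from them, per the texts deposited with them, which also name 1 more alignment set common to the calls. What was not given in the sources used here includes the aligner, the peak caller and the IDR threshold. The signal of each peak is the value the authors deposited, on an unstated scale that differs between lists, and served for ranks inside 1 list at a time. The −log10 q-value was also deposited by the authors. It is printed as a q-value for a few pooled and replicate 3 peaks and was not used to choose or rank peaks. No read counts are in the lists, and the depth is unknown. A number of 0 columns was left without a group.

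Genes came from Ensembl release 115, with 19985 protein-coding genes, and sequence from the RefSeq assembly WBcel235. A peak was given to a gene when its summit lay inside it or within 1000 bp upstream of any transcript start; promoters ran from 500 bp upstream to 100 bp downstream. A pooled peak was paired with the strongest replicate peak overlapping it by at least 1 bp. Motifs were searched on both strands within 75 bp of summits and within 1000 bp upstream of starts. The members and gene lists were chosen with earlier results of these data known, and the CCAAT box after the sequences were seen, so no test was made. From each list the IDR-thresholded genes were named and up to 2 more by pooled signal. Alternatives were stronger lists, other promoters, the nearest start, summits within 100 bp and either replicate alone. The search was tried on simulated peaks with known answers. The tools were numpy 2.4.6, pandas 2.3.3 and matplotlib 3.10.9 under Python 3.11.15.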

Additional observations from a re-analysis of the deposited data

How the results depend on the processing

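The number of members with an IDR-thresholded summit, 5, was 3 with the stronger 200 peaks (dnj-13, hsp-90 and hsp-3), 3 with summits kept only within 250 bp of a start, and 2 with the nearest start of any gene alone. It was 4 without replicate 3 and 4 without replicate 4, and the count in promoters, also 5, was 4 in both cases and 3 within 250 bp. The number with a pooled summit, 8, was 5 within 250 bp, and 8 without replicate 3 and 8 without replicate 4. The number of other chaperone and stress genes with a pooled summit, 66, was 41 in promoters. Overlapping replicate peaks were found at 8 members, and at 6 when summits had to lie within 100 bp. Any overlap of an IDR-thresholded peak with the window gave 6 members, adding hsp-110. For most of these settings no share of all protein-coding genes is given, so the counts show no difference from other genes. Leaving out a replicate could not be run for peaks of both replicates. No paired analysis was possible because there is 1 group. Depth, and so the limit of detection at hsp-60 and hsf-1, is unknown.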

Other observations

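Other words were counted in the same windows. A heat shock element of 2 units was present within 1 kb upstream of 10 of the 10 members, against 77.2% of nuclear protein-coding genes, and the CCAAT box in 10 of 10 against 89.9%. The word GAGAGA was present upstream of 7 of 10 against 49.9%, and under 4 of the 24 pooled member summits (16.7%) against 10.6% of nuclear pooled summits.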
